A study of Caenorhabditis elegans with 2 samples.

Results

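Among the 2010 sites at which the zinc finger protein ZFP-3 was mapped in Caenorhabditis elegans larvae, 241 (12%) lay at divergent promoters. A site was counted here when its summit, the position of highest signal, fell in no annotated gene and over 100 bp from any tRNA gene. In addition, its nearest protein-coding genes had to point away from each other, and the summit had to lie within 1000 bp upstream of the 5′ end of at least 1 of them. These sites are called members below. A further 240 peaks met the same conditions except that the neighbouring genes did not diverge, and they are called one-sided promoter peaks. Another 50 peaks lay between divergent genes but beyond 1000 bp from both 5′ ends. Of the remaining peaks, 946 had their summit in a gene, 204 lay at tRNA genes and 329 were in other intergenic sequence.

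The protein was mapped by chromatin immunoprecipitation and sequencing (ChIP-seq) in whole L4 larvae of strain RW12271, aged 48 h and synchronized as starved L1 larvae after bleaching. In this strain CRISPR editing inserted TY1, EGFP and 3xFLAG tags at the zfp-3 gene, allele st12271[zfp-3::TY1::EGFP::3xFLAG] X, and the antibody recognized GFP. There were 2 biological replicates of 1 group, both from the tagged strain, and animals without the tag were not analysed here. Whole animals were used, so a site cannot be assigned to a tissue, and fewer cells with a site cannot be told apart from weaker binding per cell.

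In the compact genome of this nematode, neighbouring genes on opposite strands often start close to each other and share the sequence between them as their promoter. Many transcripts of C. elegans are trans-spliced: the original 5′ end is replaced by a short leader, so that the annotated 5′ end of a gene is often the acceptor site of that splice and not the position where transcription starts. The distances below are to annotated 5′ ends. Zinc finger proteins are a large class of DNA-binding proteins, and a peak shows only where tagged protein was recovered with DNA, not what it does there.

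The sequence under the summits is shown for the 8 strongest members, leaving out a chromosome whose sequence is not printed here, since these sites carry several of the short sequences described below. Each line gives the left and the right gene, the ce11 coordinates and the sequence from 50 bp before to 50 bp after the summit, on the plus strand of the RefSeq WBcel235 genome. Capitals mark AGACGC on either strand. They likewise mark ACCGTA on either strand, as they do ACACGC and also, as a longer one, CATACAC. Matches to GAANNTTC, where N is any base, are in capitals as well.
F44E5.4/F44E5.5, chrII:11759419-11759519: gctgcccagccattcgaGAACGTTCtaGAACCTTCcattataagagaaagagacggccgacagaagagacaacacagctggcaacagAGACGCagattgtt
K01G5.10/tasp-1, chrIII:10759201-10759301: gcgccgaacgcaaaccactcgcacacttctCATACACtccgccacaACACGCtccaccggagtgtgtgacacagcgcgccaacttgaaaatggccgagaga
mog-4/madf-5, chrII:14561813-14561913: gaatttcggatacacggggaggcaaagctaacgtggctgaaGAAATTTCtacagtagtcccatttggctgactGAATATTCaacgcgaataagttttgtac
rpl-15/K11H12.8, chrIV:654880-654980: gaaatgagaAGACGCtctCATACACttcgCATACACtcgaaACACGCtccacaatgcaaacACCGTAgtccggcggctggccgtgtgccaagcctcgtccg
rpl-20/Y17G9B.5, chrIV:4750017-4750117: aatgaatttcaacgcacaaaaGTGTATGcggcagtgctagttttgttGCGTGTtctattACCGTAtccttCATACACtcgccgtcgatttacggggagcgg
gcc-2/cbp-1, chrIII:9765552-9765652: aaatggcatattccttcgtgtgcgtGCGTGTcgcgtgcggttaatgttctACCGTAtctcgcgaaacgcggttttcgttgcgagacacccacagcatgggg
unc-71/cox-5A, chrIII:12905149-12905249: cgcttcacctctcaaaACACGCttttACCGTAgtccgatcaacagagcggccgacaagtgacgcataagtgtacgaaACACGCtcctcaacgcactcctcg
ZK652.8/rpl-35, chrIII:7854645-7854745: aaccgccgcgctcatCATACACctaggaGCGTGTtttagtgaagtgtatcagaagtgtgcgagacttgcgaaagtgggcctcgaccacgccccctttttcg
The window of rpl-15 held all of these except GAANNTTC, with CATACAC more than once. The F44E5.4/F44E5.5 window held AGACGC and neighbouring matches to GAANNTTC, a pattern of inverted GAA units like those bound by heat shock factor, between genes of the Hsp70 chaperone family.

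For 2 strong members in gaps of at most 300 bp, the whole sequence between the annotated 5′ ends is shown, because at these sites the peak covers much of the shared promoter. The sequences run on the plus strand, and none of the short sequences marked above in capitals occurs in them.
rpl-7A/set-21, chrIV:4390591-4390843: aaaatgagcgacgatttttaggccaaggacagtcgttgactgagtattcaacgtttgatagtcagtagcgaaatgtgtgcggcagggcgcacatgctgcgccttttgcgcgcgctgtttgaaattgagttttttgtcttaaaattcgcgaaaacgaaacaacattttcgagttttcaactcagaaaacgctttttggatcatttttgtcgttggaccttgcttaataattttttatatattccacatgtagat
fbxb-85/hex-3, chrIII:10848964-10849221: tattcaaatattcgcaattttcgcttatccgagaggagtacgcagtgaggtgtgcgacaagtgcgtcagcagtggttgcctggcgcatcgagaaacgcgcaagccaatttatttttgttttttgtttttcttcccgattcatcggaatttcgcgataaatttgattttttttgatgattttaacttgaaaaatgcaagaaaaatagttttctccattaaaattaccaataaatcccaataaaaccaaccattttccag

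The rule places each member within 1000 bp of a gene start, and within that limit most were nearer than 300 bp. Many lay upstream of both neighbours. The shares below are not set beside those of all sequence open to members, so they describe position only. The summit was a median of 190 bp from the nearer 5′ end (quartiles 109 and 309 bp, range 1 to 930 bp). Of the 241 members, 127 (52.7%) were within 200 bp, 177 (73.4%) within 300 bp and 211 (87.6%) within 500 bp of it. One-sided promoter peaks were a median of 287 bp from their gene (quartiles 162 and 492 bp), but a member has a pair of starts that it can be close to, and that difference was not tested. Both genes lay within 1000 bp at 128 members (53.1%, exact binomial 95% interval 46.6 to 59.5%), and 1 gene did at the other 113. At the 128, the nearer start was a median of 154.5 bp and the farther 343.5 bp away, in gaps of 14 to 1830 bp with a median of 493 bp. Over all members the farther start was a median of 862 bp and at most 16448 bp away, and in 30 it was over 5000 bp away. All such intervals cover counting error only, and neighbouring peaks are not independent observations.

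**Figure D1:**
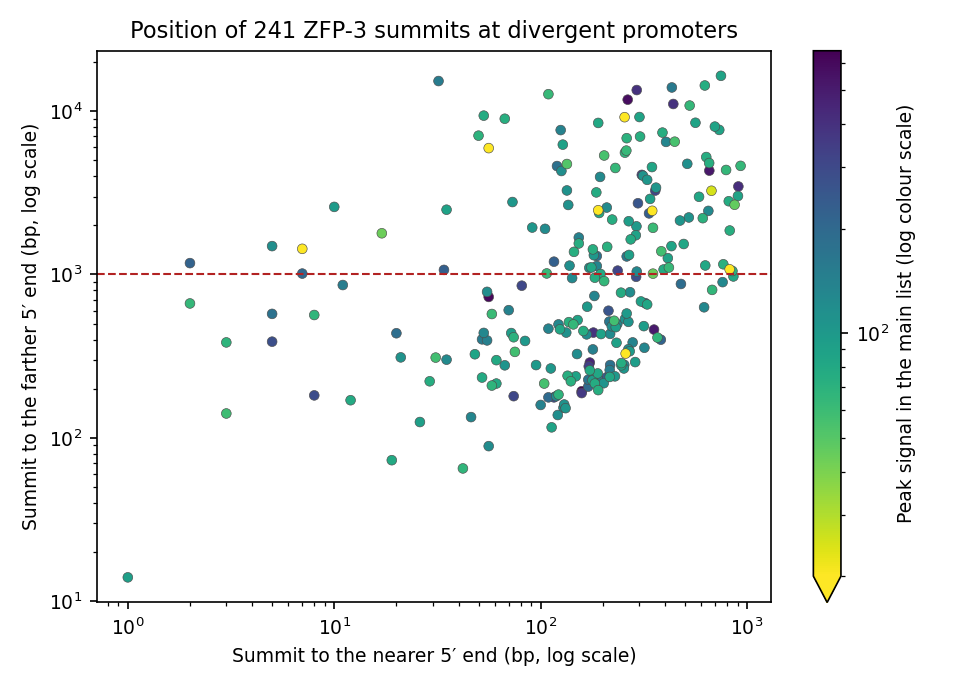
Distance in bp from each of the 241 summits to the nearer (x) and the farther (y) annotated 5′ end, on log axes, with 1 point per member coloured by its signal in the main list. Below the dashed line at 1000 bp lie the 128 members upstream of both genes, and the 113 above it lie upstream of 1.

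The 1000 bp limit cuts through a sparse range. The members nearest inside it were at nhr-105 (930 bp, signal 63.6), cbp-1 (907 bp, signal 413) and ain-1 (903 bp, signal 85.8). The peaks nearest outside it were at ppm-2 (1047 bp, signal 74.8), C02F12.8 (1088 bp, signal 89.2) and F58D5.5 (1127 bp, signal 117).

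Members occupied 228 of the 4211 divergent gaps in the genome (5.41%). Counting every summit outside genes, divergent gaps held one in 258 cases (6.13%), against 396 of 10151 gaps between genes in tandem (3.9%) and 104 of 2711 gaps between convergent genes (3.84%). Per Mb of gap sequence, however, there were 22.6 summits in divergent, 22.2 in tandem and 28.2 in convergent gaps. Gaps of different kinds differ in length, and the contrast in the share of gaps was largest in the short ones. Among gaps of up to 500 bp, 65 of 907 divergent gaps held a summit (7.17%, 95% interval 5.57 to 9.04%), compared with 2.58% of tandem (2.08 to 3.16%) and 1.85% of convergent gaps (1.18 to 2.77%). Even in this range divergent gaps were longer, with a median of 283 bp against 184 bp for tandem and 195.5 bp for convergent gaps. Per Mb there were 252, 121 and 97.7 summits in that order. Between 500 and 1000 bp the shares were 6.17, 3.47 and 5.09%, and between 1000 and 2000 bp 5.41, 3.83 and 5.12%. Above 5000 bp the order was the opposite of that up to 500 bp, with 6.80% for divergent, 8.54% for tandem and 9.42% for convergent gaps, and the intervals overlapped. Relative to the intergenic sequence open to each class within 1000 bp upstream of a gene, members numbered 47.2 per Mb (exact Poisson 95% interval 41.5 to 53.6) and one-sided promoter peaks 36.7 per Mb (32.2 to 41.7). No test was made of these differences, since the gaps share 1 set of peaks from 2 libraries of 1 group.

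**Figure D2:**
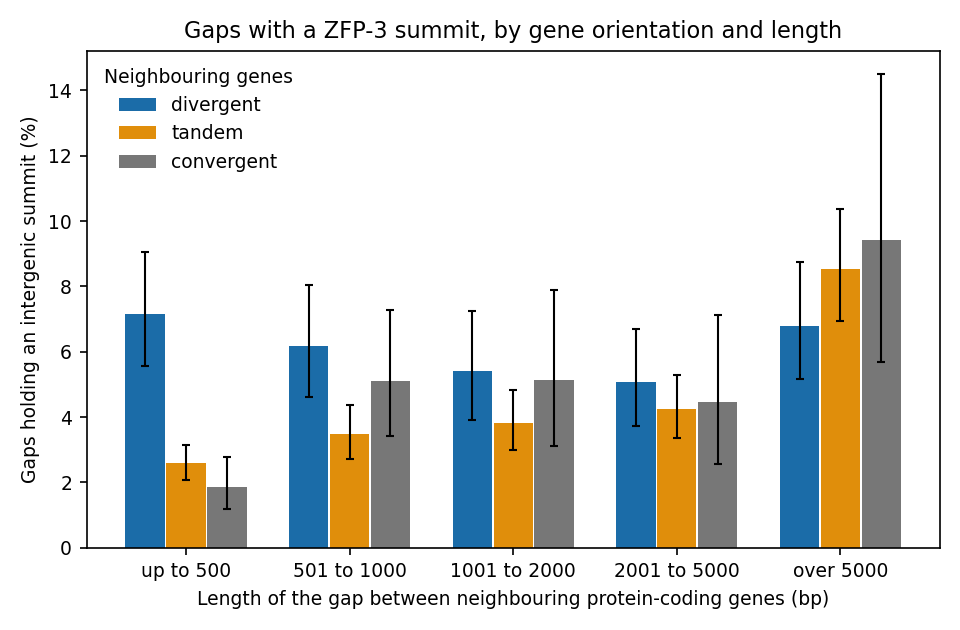
Percent of gaps between neighbouring protein-coding genes that hold at least 1 ZFP-3 summit outside genes, by gene orientation and gap length in bp. Bars are shares and error bars exact binomial 95% intervals, and divergent gaps of up to 500 bp (7.17%) stand above tandem (2.58%) and convergent gaps (1.85%) of that length.

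The share of divergent gaps with a member varied between chromosomes. On chromosome III it was 55 of 555 gaps (9.91%, 95% interval 7.55 to 12.7%), and on chromosome V 31 of 1037 (2.99%, 2.04 to 4.22%). The other chromosomes lay between these, from 4.04% on X to 6.49% on I. In 13 gaps there were 2 members, with summits 202 to 1011 bp apart (median 456 bp), and in 5 of the 13 their peaks overlapped. A noncoding RNA gene lay within 200 bp of 22 members, in 8 cases a small nucleolar RNA gene, so for those the nearest transcript need not be a protein-coding one.

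In the gaps with 2 members the sites could differ in strength. Upstream of eel-1, which encodes a HECT ubiquitin ligase, the site at 359 bp had a signal of 187 in replicate 1 and 168 in replicate 2, and the site at 815 bp had 54.4 and 63.4. Between ntl-11 and Y73F8A.27 the sites lay near opposite ends of a gap of 1313 bp, 116 bp from ntl-11 (104 and 117) and 187 bp from Y73F8A.27 (92.1 and 53.9). The same arrangement was found between F56C9.10 and gsp-2, a protein phosphatase 1 gene, at 138 bp from the former (63.2 and 59.8) and 172 bp from the latter (53.8 and 47). Between ecps-1 and atx-2, the ataxin-2 gene, the site 55 bp from atx-2 had 68.1 and 59.3 and the site 261 bp from ecps-1 had 59.8 and 46.8. The pair upstream of cyn-10, a cyclophilin gene, shared 1 peak in each library (60.8 and 51.8), and its weaker site had a main list signal of 17.

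The signal of a peak is the strength the authors deposited, its scale is not stated, and depth is unknown from these lists, so signals are compared within a list. In the main list the members had a median signal of 94.9 (quartiles 74.0 and 131, range 5.91 to 648). The medians were 91.9 for one-sided promoter peaks, 76.8 for peaks between divergent genes beyond 1000 bp, 74.3 for summits in genes, 91.4 at tRNA genes, 88.5 in other intergenic sequence and 82.3 for the whole list. Members made up 24 of the 100 strongest peaks of the list, one-sided promoter peaks 18, other intergenic peaks 23 and summits in genes 32. The ratio of the medians of members and one-sided promoter peaks was 1.03 in the main list, but 0.922 in the thresholded list of replicate 2 alone, so their order was not the same in every list. Members upstream of both genes had a median of 107 and those upstream of 1 gene 85.8. Only 8 members had a signal under 30, and 7 of these overlapped a stronger peak of the list.

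Both libraries gave signal at nearly all members, as at nearly all peaks of the main list, but fewer passed the authors' threshold in each library alone. A peak of replicate 1's unthresholded list overlapped 240 members (median signal 53.3) and one of replicate 2's list overlapped 237 (median 47). Over the whole main list of 2010 peaks the counts were 1995 and 1994. That list was selected on agreement between replicates, so this overlap is no separate result about the members. Of the members, 97 (40.2%, 95% interval 34.0 to 46.7%) overlapped a thresholded peak of both libraries, 61 of 1 and 83 of neither, where the share over the whole main list was 27%. For one-sided promoter peaks it was 84 of 240 (35%, 29.0 to 41.4%), an interval that overlaps that of the members. The share was 48.4% (39.5 to 57.4%) for members upstream of both genes and 31.0% (22.6 to 40.4%) for those upstream of 1. Stronger members passed more often: all 20 of the strongest, 39 of the next 40, 33 of the next 60 and 5 of the last 121 did so in both libraries. The main list signal and the thresholds come from the same libraries, so this order is a description only. Over 236 members with a peak in both unthresholded lists, replicate 1 and replicate 2 correlated with a Spearman coefficient of 0.651, given as a description, since the main list was itself selected on agreement between replicates. Summits of the single libraries were a median of 18 bp (replicate 1) and 17 bp (replicate 2) from those of the main list.

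**Figure D3:**
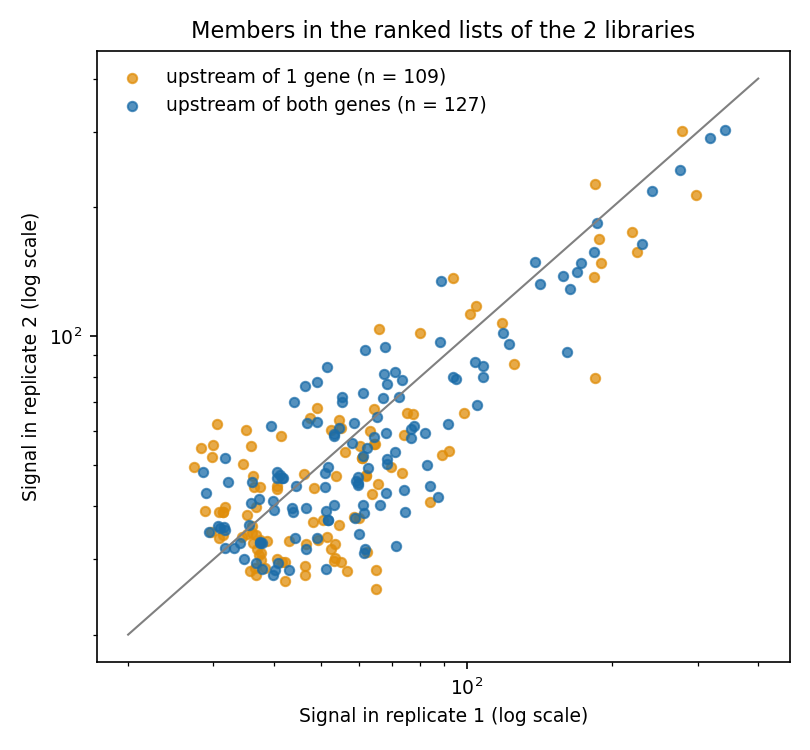
Signal of 236 members in the unthresholded list of replicate 1 (x) and of replicate 2 (y), log axes, with members upstream of both genes in blue and of 1 gene in orange. The line marks equal values, and the strongest members are high in both libraries, with F44E5.4/F44E5.5 at 341 and 304.

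The 4 strongest members lay at genes with unlike roles. The site between the Hsp70 genes F44E5.4 and F44E5.5 on chromosome II (peak 11759306 to 11759663) had a signal of 341 in replicate 1 and 304 in replicate 2, and of 648 in the main list. Its summit was 158 bp from F44E5.4 and 193 bp from F44E5.5, close to the middle of a 350 bp gap. The next site was 56 bp upstream of tasp-1, which encodes a threonine aspartase, and 729 bp from K01G5.10 (chromosome III, 10759137 to 10759399), with signals of 318 and 290 in the replicates and 613 in the main list. At mog-4, which encodes a splicing helicase needed for the switch from sperm to oocytes, the signals were 278 and 301 (main list 578), 264 bp upstream of the gene. At rpa-2, which encodes part of the RPA complex that coats single-stranded DNA, they were 298 and 213 (main list 519), 656 bp upstream. The mog-4 and rpa-2 sites hold sequence that recurs in the genome: 55 and 57 of the 66 stretches of 36 bases within 50 bp of their summits occur elsewhere too, so reads there may stem from other copies, which was not tested. A window with at least 1 such stretch was found at 18 members.

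Cytosolic ribosomal protein genes had the highest share at members among the 34 gene lists examined. Genes with a member within 1000 bp upstream numbered 358 of the 8422 that flank a divergent gap (4.25%). For the ribosomal protein genes it was 19 of 53 (35.8%, 95% interval 23.1 to 50.2%), 9 of the large and 10 of the small subunit, at 18 members. Of these 19 genes, 17 were at a member that passed the threshold in both libraries, and the signals ran from 31.8 to 276 (median 93.7) in replicate 1 and from 40.3 to 244 (median 96.6) in replicate 2. The strongest was the site 354 bp upstream of rpl-15 (chromosome IV, 654819 to 655041), with 276 in replicate 1 and 244 in replicate 2. At rpl-20 (chromosome IV, 4749973 to 4750169) the values were 242 and 218, with the summit 289 bp upstream. At rpl-35 (chromosome III, 7854592 to 7854790) they were 220 and 175, at 439 bp. Both libraries ranked these sites in the same order. They were named for their high signal in the main list, which was derived from both libraries, so their high values in each are a description only.

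A ribosomal protein gene was often not the closer of the neighbours. In 9 of the 19 cases it was the nearer gene, and at 16 both genes were within 1000 bp. The member of rpl-7A and set-21 had 169 in replicate 1 and 141 in replicate 2, with rpl-7A 74 bp and set-21 180 bp away. The member of rpl-12 and lin-54 had 158 and 138, and its summit was 5 bp from the annotated 5′ end of rpl-12. The gap of rps-14 and rpl-36 paired ribosomal protein genes of both subunits, with 65.3 and 64.5. These shared sites cannot be assigned to either gene.

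Chromatin genes came next, with 16 of 55 (29.1%, 95% interval 17.6 to 42.9%), 10 of the 16 at a member that passed the threshold in both libraries. In 7 of the 16 cases the chromatin gene was the nearer gene, and at 14 both genes were within 1000 bp. The members of set-21, lin-54 and ekl-4 are also those of rpl-7A, rpl-12 and rps-20, and jmjd-4 shares its member with the respiratory chain gene mev-1. The shares of these lists are therefore not separate observations. The strongest sites were at cbp-1, which encodes the histone acetyltransferase related to CBP and p300 (184 and 226 in the replicates, 907 bp upstream), and at set-16, which encodes a histone H3 lysine methyltransferase of the MLL family (186 and 184, 188 bp). The set-16 summit lay between it and drr-2, a gene related to a translation initiation factor, in a gap of 345 bp. The list also held genes of the DREAM complex, which represses cell cycle and germline genes in somatic cells: lin-35, the retinoblastoma homologue, lin-9, lin-53, lin-54 and efl-1. Of 8 DREAM subunit genes considered after their values were seen, 5 flank a divergent gap, and all 5 were at a member, 3 of them in both libraries. Their signals in replicate 1 were 50.9 at lin-35, 79.9 at lin-9, 59.7 at lin-53, 158 at lin-54 and 43.6 at efl-1. In replicate 2 they were 47.9 at lin-35, 102 at lin-9, 45.2 at lin-53, 138 at lin-54 and 39.6 at efl-1. The lin-54 values are those of the site shared with rpl-12, whose summit was 388 bp from lin-54 and 5 bp from rpl-12.

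Genes of energy metabolism, protein folding and a few short lists followed. Of the respiratory chain and ATP synthase genes, 8 of 32 (25%, 95% interval 11.5 to 43.4%) were at a member. The site of cox-5A, for a cytochrome c oxidase subunit, had 225 in replicate 1 and 157 in replicate 2, and that of atp-1, for the alpha subunit of ATP synthase, had 138 and 149 with its summit 8 bp from the 5′ end. Of the heat shock and chaperone genes, 8 of 42 (19.0%, 8.60 to 34.1%) were. All 8 chaperone genes were at a member that passed the threshold in both libraries, against 4 of the 8 respiratory chain and ATP synthase genes. Among the chaperone genes were cct-8 of the cytosolic chaperonin (230 and 164), the mitochondrial chaperone hsp-60 (161 and 91.6) and hsp-3, an Hsp70 of the endoplasmic reticulum (125 and 85.9). The main list summit at hsp-3 was 2 bp from its 5′ end, but the summits of replicates 1 and 2 were 44 and 59 bp from that summit. The short lists of heterochronic genes (3 of 15, 20%, 4.33 to 48.1%), which time larval development, and of the vacuolar ATPase (2 of 10, 20%, 2.52 to 55.6%) had similar shares with wide intervals. All 3 heterochronic genes were far from the summit of their strongest member, lin-46 at 862 bp, ain-1 at 903 bp and lep-2 at 858 bp. A weaker member, with a main list signal of 25.1, lay 672 bp from ain-1. The lin-46 summit was 11 bp from its other neighbour, R186.8. In both libraries the threshold was passed at 2 of the 3 heterochronic genes and at none of the vacuolar ATPase genes. At ain-1, which is counted as passing, the closest overlapping peak of replicate 2's unthresholded list had a signal of 28.4. F44E5.4 and F44E5.5 are not in the chaperone list, which was drawn up by gene symbol. At the shared site of hsp-110 and rpn-3, which encodes a proteasome subunit, replicate 2 was higher (135) than replicate 1 (88.6).

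RNA processing and transport genes were present in smaller numbers. Of the splicing genes 7 of 37 (18.9%, 95% interval 7.96 to 35.2%) were at a member, including rsp-1 and rsp-2, which encode SR proteins and share a site (68.3 in replicate 1 and 43 in replicate 2). Of the nuclear pore and transport genes it was 5 of 29 (17.2%), with npp-14 the strongest (55.3 and 71.8). Of the genes for RNA decay and processing it was 5 of 34 (14.7%), and ntl-11, related to the CCR4-NOT deadenylase, was the strongest of them. Vesicle traffic genes reached 8 of 67 (11.9%), led by sec-61.G of the protein translocation channel (190 and 148). Translation factors reached 3 of 26 (11.5%), led by iff-2, the homologue of eIF5A (172 and 148). The threshold was passed in both libraries at 2 of the 7 splicing, 2 of the 5 nuclear pore and 3 of the 5 RNA decay genes. It was also passed at 1 of the 8 vesicle traffic genes and 2 of the 3 translation factors. The intervals of these smaller lists are wide, and those of the translation factors (2.45 to 30.2%) include the 4.25% of all flanking genes.

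In several other gene lists few or no genes were at a member. Chemoreceptor genes had 3 of 478 (0.628%, 95% interval 0.130 to 1.82%), an interval below the 4.25% of all flanking genes. Nuclear hormone receptors had 3 of 104 (2.88%, 0.599 to 8.20%) and histone genes 1 of 70, the H2A.Z gene htz-1 (1.43%, 0.0362 to 7.70%), and both intervals include 4.25%. None of 100 intestinal genes was at a member, which allows a share of up to 3.00%. None of 99 C-type lectins was either (up to 3.03%). The lists of 70 synaptic, 24 homeobox, 19 major sperm protein and 18 muscle genes also had none, but with up to 4.29, 12.5, 15.8 and 16.7% allowed they are too short to be set against 4.25%. Germline genes had 3 of 55 (5.45%). Higher shares were found for the lists of mitochondrial import (2 of 15, 13.3%) and of kinesin, dynein, actin and tubulin (5 of 39, 12.8%). The same held for glycolysis (2 of 19, 10.5%) and the proteasome (4 of 41, 9.76%). Of these intervals, only that of the kinesin, dynein, actin and tubulin list (4.30 to 27.4%) left out 4.25%. Genes named only by their sequence made up 26% of the genes at members and 43.6% of all that flank a divergent gap.

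**Figure D4:**
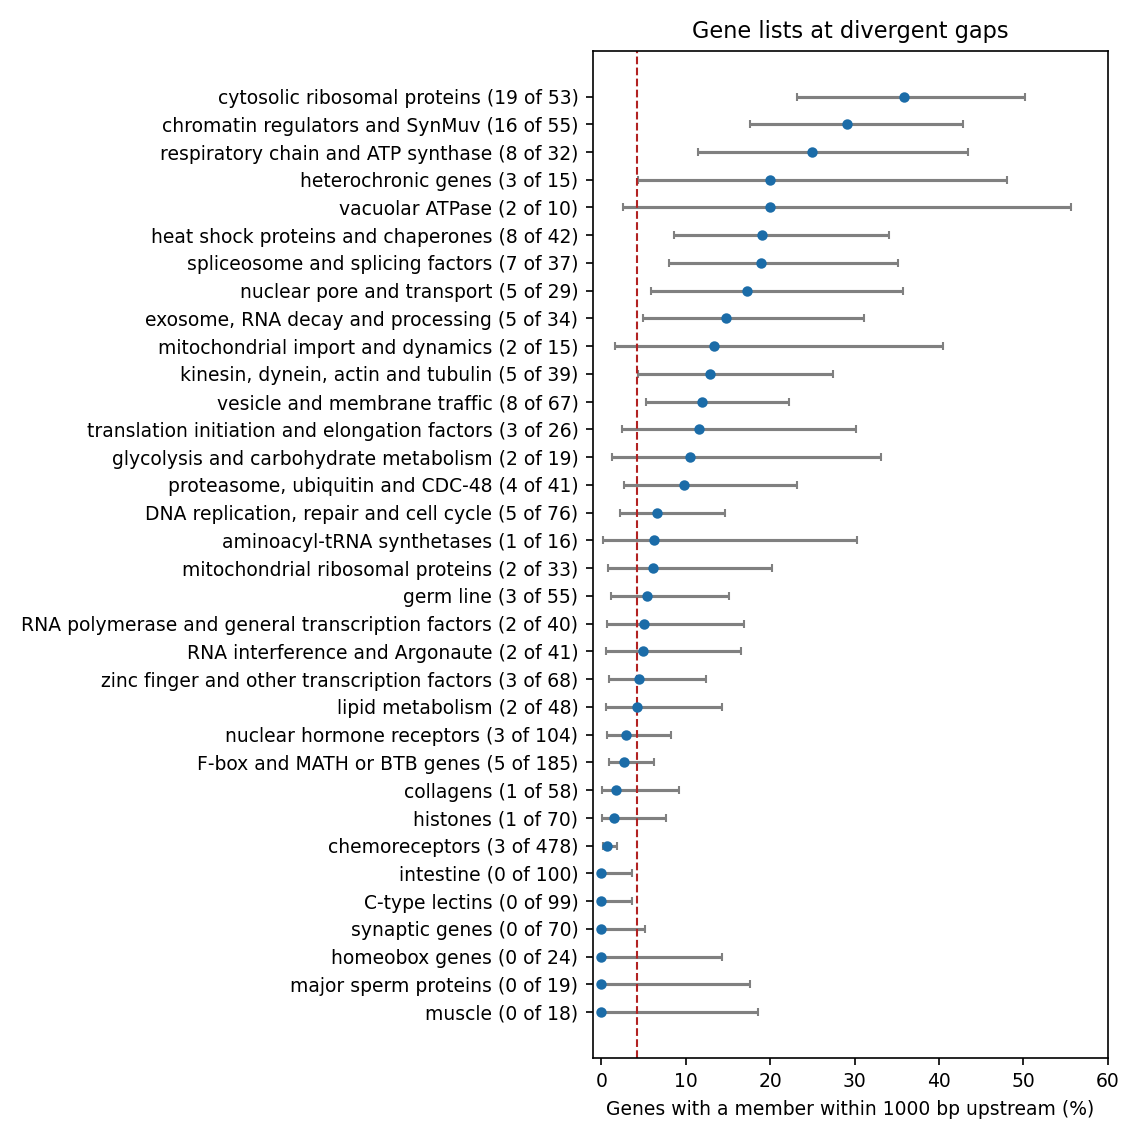
Percent of the genes flanking a divergent gap that have a member within 1000 bp upstream, for 34 gene lists, with the counts in parentheses. Points are shares, bars exact binomial 95% intervals, and the dashed line marks the 4.25% of all 8422 flanking genes, below the interval of the ribosomal protein genes (23.1 to 50.2%).

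The zfp-3 gene itself was at a member. The peak (chromosome X, 1446803 to 1447138) had its summit 328 bp upstream of zfp-3 and 3797 bp from W05H7.1. Its signal was 61.8 in replicate 1, where it passed the threshold, and 47.2 in replicate 2, where it did not, and 105 in the main list. The tags were inserted at this gene, and whether that affected the peak was not tested.

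Members were richer in G and C than promoters at large, and held some short sequences more often. The windows of 50 bp on each side of a summit had 47.9% G and C, against 42.6% at one-sided promoter peaks, 34.2% at the centres of 3886 divergent gaps without a summit and 34.3% in windows of the same length centred 190 bp upstream of all 19973 protein-coding genes. AGACGC, searched like all others within 50 bp of the summit and on both strands, was in 35 members (14.5%, 95% interval 10.3 to 19.6%), in 11.7% of one-sided promoter peaks, in 2.26% of the empty gaps and in 2.77% of all upstream windows. In those 35 members the middle of the match was a median of 25 bp from the summit, in windows that reach 50 bp to each side. Matches spread evenly over such windows would have a similar median, so this value does not show that they gather at the summit. GAGAGA was in 20.3%, 13.8%, 6.12% and 7.80% of these in the same order, and CACGTG, the E-box palindrome, in 6.22%, 6.25%, 1.44% and 1.57%. Members upstream of both genes held GAGAGA in 13.3% (7.93 to 20.4%), near the share of one-sided promoter peaks, and members upstream of 1 gene in 28.3% (20.2 to 37.6%). AT-rich elements had the reverse order. TATAAA was in 4.98% of members, 8.33% of one-sided promoter peaks and 13.0% of all upstream windows. The T-run TTTTTTTT was in 4.15%, 5.83% and 13.1%. These low shares were not particular to members: in the 1529 remaining peaks of the main list they were 5.76 and 5.43%. GAANNTTC was in 5.81% of members and 6.65% of all upstream windows. The part of base composition in these shares was not tested.

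Among all sequences of 6 bases, those with the largest difference in share between members and empty divergent gaps were GAGAGA, given above, and the 4 that follow. CGAGAG was in 18.7% of members and 2.55% of empty gaps, and in 8.75% of one-sided promoter peaks and 3.14% of all upstream windows. GACGCA, which overlaps AGACGC by 5 bases, was in 18.3% of members, 2.75% of empty gaps, 16.3% of one-sided promoter peaks and 3.23% of all upstream windows. GCGAGA was in 18.7%, 3.60%, 8.75% and 3.28% in that order. GCGCCA was in 17%, 2.26%, 11.3% and 1.90%. CGAGAG shares 5 bases with GCGAGA and with GAGAGA, so these are not separate observations.

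ACCGTA and ACACGC were read from the windows of the 30 strongest members, so their counts there are a description. ACCGTA was in 9 of the 20 strongest members (45%), 9 of the next 40 (22.5%), 8 of the next 60 (13.3%) and 8 of the last 121 (6.61%). Leaving out those 30, it was in 23 of 211 members (10.9%), against 3.25% of all upstream windows and 5.42% of one-sided promoter peaks. ACACGC was in 8, 6, 8 and 10 members of the same 4 groups (40, 15, 13.3 and 8.26%), and in 22 of the 211 (10.4%), against 2.27% of all upstream windows, 7.92% of one-sided promoter peaks and 10% of the 100 strongest peaks that are not members. For ACCGTA the share in those 100 was 12%. The longer ACACGCTC, which contains it, was in 5 of the 20 strongest members and in 3 of the 211 (1.42%), against 0.155% of all upstream windows. AGACGC went from 25 to 17.5, 11.7 and 13.2% over these groups and GAGAGA from 20 to 15, 18.3 and 23.1%. The G and C content went down alongside, from 53.4 to 51.6, 49.5 and 44.9%, and its part in the order of ACCGTA and ACACGC was not tested. For comparison, the median share over all 6-base sequences with 3 G or C, as in ACCGTA, was 0, 2.50, 3.33 and 3.31% in the 4 groups, and over those with 4, as in ACACGC, it was 5, 3.75, 3.33 and 3.31%. At 3 of the 19 ribosomal protein genes, rpl-15, rpl-20 and rpl-35, the windows are among those printed above.

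Genes at members had a splice acceptor sequence at their annotated 5′ end more often than genes at large, a difference given with its counting intervals and not tested. TTTCAG, the consensus of a C. elegans splice acceptor, stood directly before the 5′ end of 28.2% of the 358 genes (95% interval 23.6 to 33.2%), against 1084 of all 8422 genes flanking divergent gaps (12.9%) and 2447 of all 19973 protein-coding genes (12.3%). The dinucleotide AG preceded 48.9% (43.6 to 54.2%) of the genes at members, 26.8% of all flanking genes and 27.6% of all protein-coding genes. Near the summits, in contrast, TTTCAG was in 9.13% of member windows and 17.8% of empty gap centres. It was in 13.3% of one-sided promoter peaks and 11.4% of the remaining peaks of the main list. A match is only a description of the sequence, and no trans-splicing was measured here.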

How the data were processed

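Peak lists on the ce11 build were used for 2 biological replicates of 1 group. The signal of each peak is the authors' deposited strength, on a scale that is not stated, and the score is the authors' deposited scaled irreproducible discovery rate (at least 830 in every thresholded list). Per the notes deposited with the lists, each came from the alignments of its own library or of both. The aligner and caller were not given in the sources used here. The conservative thresholded list of 2010 peaks was the main list. The single libraries were read from their thresholded lists (931 and 933 peaks) and their unthresholded ranked lists (43564 and 43966 peaks), with an overlap of at least 1 bp. Read depth is unknown.

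Genes came from Ensembl release 115 and sequence from the RefSeq WBcel235 assembly, whose chromosome lengths match ce11. Shares have exact binomial (Clopper-Pearson) and densities exact Poisson 95% intervals; no test was run. The zero limits are 3 counts of the total. Python 3.11.15, pandas 2.3.3, numpy 2.4.6 and SciPy 1.17.1 were used, and the code was tested on simulated data.

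The members, gene lists and short sequences were chosen with earlier results of these data known. The sequence ACCGTA and also ACACGC with its longer form, as well as CATACAC, the upstream windows, the 36-base stretches, the sequence before 5′ ends and the DREAM genes were added after seeing the data, and the cytoskeletal gene list was corrected for 1 wrong match. Genes were named at the 20 strongest members, for up to 4 genes per list by signal, at the 5 strongest gaps with 2 members, at up to 10 members with both genes listed and at the 3 peaks nearest each side of 1000 bp; the text gives part of them, and hex-3 comes from the rule for printed gaps, the 3 strongest of at most 300 bp outside chromosome I, of which 1 is not reported here.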

Additional observations from a re-analysis of the deposited data

How the results depend on the processing

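The number of members was 131 to 136 when 1 library was left out and its peer's own list was used, and 153 among the 1005 peaks of the main list with the highest signal. The share of divergent gaps with a member was 2.97 to 3.04% without 1 library, 4.13% with the other thresholded list of the series and 3.56% for the 1005 strongest peaks. A limit of 500 bp gave 45% of members upstream of both genes and a median distance of 176 bp, and 2000 bp gave 66.5% and 209 bp. Among those 1005 peaks 62.8% of members passed the threshold in both libraries. The median signal relative to one-sided promoter peaks was 0.922 with replicate 1 left out and 1.06 with replicate 2 left out. In the alternatives that kept both libraries it was 1.04 to 1.11. Its direction was therefore not the same in every list, and the reason was not tested. AGACGC lay with all its bases within 25 bp of the summit in 6.22% of members. Ribosomal protein genes at members numbered 16 to 22 in all alternatives run. Depth and signal scale are unknown, and peaks of 1 group without an untagged control cannot show how much of a signal depends on the tagged protein.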
